A study of Mus musculus with 8 samples.

Results

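The G2 and mitosis genes examined here were 42 genes whose products carry a cell from the end of DNA replication through mitosis and cytokinesis. They were found by matching the RefSeq accession of each array probe to the gene's symbol. All 42 genes had a probe, 60 probes in all, and 41 of the 42 passed the filter of being well above background on at least 2 of 8 arrays, among 26460 genes and unnamed transcripts that passed it. Cenpf, which codes for a kinetochore protein, was well above background on 1 array and was not tested.

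The arrays held RNA of mouse 3T3-L1 cells, a preadipocyte line that turns into fat cells once it is confluent and given hormones. Unmodified cells (WT) and cells stably carrying an shRNA against the long noncoding RNA slincRAD (slincRAD-shRNA-8, called sh8 here) were each sampled at days -2, 0, +2 and +4, with 1 array per line and day. Cells of both lines were grown in 10% newborn calf serum, reached confluence at day 0, and were then induced with insulin (167 nM), dexamethasone (1 µM) and isobutylmethylxanthine (0.5 mM). The samples hold no line with a control shRNA, and the labels do not say whether sh8 is 1 clone. SlincRAD itself was not analysed here, so no check of the line labels against the target was made.

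Per the file headers, the days -2 and 0 arrays shared 1 scan date and the days +2 and +4 arrays another. Arrays of 1 scan date are taken here as 1 slide. The step from day 0 to day +2 and the change of slide cannot be told apart. On both slides the WT arrays held the first pair of positions and the sh8 arrays the second, so line and position cannot be told apart either. Between 64.9% and 81.7% of probes were well above background on an array, and no spot was saturated. The labels call the cells of every array adipocytes. Preadipocyte and fibroblast markers were well above background on every array for 9 of 9 genes, with summed levels of 400 to 570 times the array's 75th percentile. Of 11 adipocyte markers, 6 to 7 were well above background at days -2 and 0 and 11 at days +2 and +4.

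Mitosis is started by Cdk1 bound to cyclins A2, B1 and B2, after Cdc25 phosphatases remove its inhibitory phosphates, and is carried on by the Polo and Aurora kinases. Most of these genes are transcribed together, late in the cycle, under the MuvB complexes: DREAM holds them low in resting cells, and B-Myb and Foxm1 with MuvB raise them in G2. These complexes act at a promoter element called the cell cycle genes homology region, and the factor NF-Y acts at nearby CCAAT boxes. Confluent 3T3-L1 preadipocytes stop dividing, and after the hormone mix they go through a few divisions, known as mitotic clonal expansion, before they differentiate.

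RefSeq promoter windows, from 250 bases before to 50 bases after the annotated start (GRCm38.p6), were found for 34 of the 42 genes. The letters TTTGAA, the core of the cell cycle genes homology region, stood on either strand of the first window of 26 of these 34 genes (76.5%), against 17.9% of all 32851 windows. CCAAT stood there in 27 of 34 (79.4%), against 37.4%, and at least 2 times in 20 of 34, against 11.7% of all windows. Both motifs were found in 23 of 34 (67.6%), against 6.95%. TTCGAA, a variant of the first motif, stood in 3 of 34 (8.82%), against 1.56%. Both strands were searched, matches of different motifs can share at most 1 base, and a match describes the letters, not a bound site.

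The 200 bases before the start are printed 5′ to 3′ for 5 genes that were higher at day +2 than at day 0 by at least 1 in both lines (Cdk1, Ccnb1, Cdc20, Prc1 and Top2a) and for the 3 that stood apart most (Mki67, Cenpe and Hmmr), so that the motifs of the 2 sets can be set side by side. Capitals mark TTTGAA and CCAAT on either strand, so that TTCAAA and ATTGG are the same motifs on the other strand. The stretches are chr10:69352913-69353112, chr13:100786487-100786686, chr4:118437344-118437543, chr11:99024190-99024389, chr11:40733438-40733637 and chr7:135716380-135716579 on the minus strand, and chr7:80294276-80294475 and chr3:135212363-135212562 on the plus strand. For Prc1, which has more than 1 annotated start, the second window is shown, since a TTTGAA in the first runs across the start.
Cdk1: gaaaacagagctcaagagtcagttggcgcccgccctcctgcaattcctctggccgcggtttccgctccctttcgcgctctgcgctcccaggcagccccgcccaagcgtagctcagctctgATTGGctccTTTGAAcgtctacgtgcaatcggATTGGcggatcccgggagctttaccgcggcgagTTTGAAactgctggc
Ccnb1: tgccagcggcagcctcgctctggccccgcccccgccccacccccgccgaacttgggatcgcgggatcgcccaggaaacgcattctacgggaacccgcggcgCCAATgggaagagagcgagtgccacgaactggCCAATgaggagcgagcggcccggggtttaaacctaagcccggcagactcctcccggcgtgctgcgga
Cdc20: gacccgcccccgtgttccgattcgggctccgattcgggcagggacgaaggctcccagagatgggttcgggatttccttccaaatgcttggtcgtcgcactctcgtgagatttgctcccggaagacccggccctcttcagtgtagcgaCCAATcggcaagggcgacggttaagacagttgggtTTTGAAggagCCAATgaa
Prc1: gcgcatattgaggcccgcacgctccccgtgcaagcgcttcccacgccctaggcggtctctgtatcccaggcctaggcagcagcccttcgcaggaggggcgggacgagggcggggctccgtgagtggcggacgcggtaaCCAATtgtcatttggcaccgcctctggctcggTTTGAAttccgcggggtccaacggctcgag
Top2a: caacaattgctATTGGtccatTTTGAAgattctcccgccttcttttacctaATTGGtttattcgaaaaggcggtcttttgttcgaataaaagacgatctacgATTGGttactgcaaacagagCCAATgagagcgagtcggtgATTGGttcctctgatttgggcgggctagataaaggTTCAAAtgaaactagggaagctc
Mki67: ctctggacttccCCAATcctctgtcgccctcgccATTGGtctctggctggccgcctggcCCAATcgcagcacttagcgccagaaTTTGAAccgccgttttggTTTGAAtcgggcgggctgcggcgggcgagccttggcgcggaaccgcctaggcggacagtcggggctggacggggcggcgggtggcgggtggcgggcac
Cenpe: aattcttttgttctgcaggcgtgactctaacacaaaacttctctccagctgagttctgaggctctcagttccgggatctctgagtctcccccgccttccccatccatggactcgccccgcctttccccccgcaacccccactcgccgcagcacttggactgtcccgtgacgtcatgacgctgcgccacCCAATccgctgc
Hmmr: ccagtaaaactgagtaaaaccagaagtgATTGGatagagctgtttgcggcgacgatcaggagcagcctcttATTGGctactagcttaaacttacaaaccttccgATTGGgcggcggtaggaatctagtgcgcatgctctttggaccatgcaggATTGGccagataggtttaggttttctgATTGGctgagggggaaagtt

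Cdk1 had TTTGAA at -71 and -15, counted from the start, Cdc20 at -18 and Prc1 at -30. Ccnb1 had 2 CCAAT boxes, at -99 and -67, and no TTTGAA. Among the genes that stood apart, Mki67 had TTTGAA at -116 and -98 with 3 CCAAT boxes upstream of them. Hmmr had 5 CCAAT boxes, and its TTTGAA lay at 9 after the start, outside the printed stretch. Cenpe had CCAAT at -12 and neither TTTGAA nor TTCGAA. Among the genes printed, a gene without TTTGAA was thus found in each of the 2 sets. The other genes with a window were not compared in this way.

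In both lines the mitosis genes were high in growing cells at day -2, low at confluence and high again at day +2. At day +4 WT still held most of the day +2 level, while in sh8 the genes were back at about their day 0 level. All levels below are log2 processed intensity relative to the array's own 75th percentile, which is 0, and all differences are on the log2 scale. With each gene centred on its own mean over the 8 arrays, the median of the 41 genes in WT was 1.48 at day -2, -1.56 at day 0, 1.18 at day +2 and 0.61 at day +4. In sh8 the same medians were 1.54, -1.65, 0.19 and -1.76. The lines thus started and paused alike, and parted from day +2 on. In a bulk sample, fewer cells in G2 and mitosis and less RNA per such cell cannot be told apart.

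**Figure D1:**
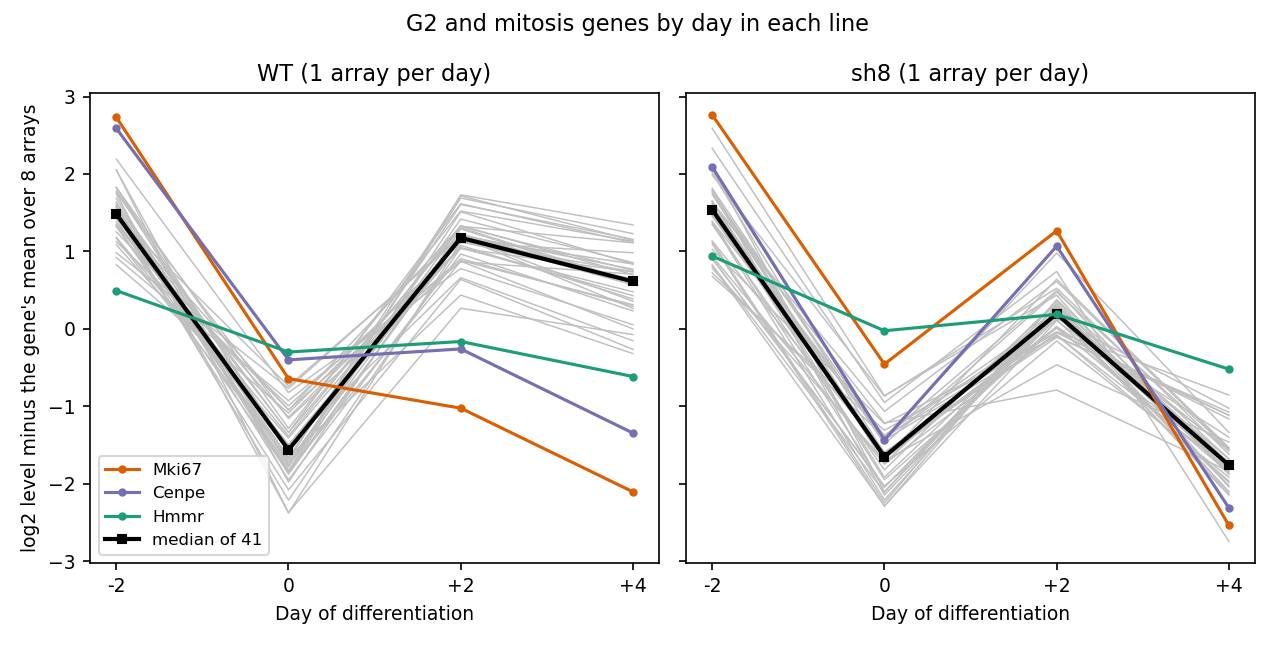
Level of 41 G2 and mitosis genes by day (x axis) in WT (left) and sh8 (right), each as the log2 level minus the gene's own mean over the 8 arrays (y axis), 1 array per point. Grey lines are single genes, the black line is their median, and Mki67, Cenpe and Hmmr are coloured. The median returns to 1.18 at day +2 in WT and to 0.19 in sh8, and at day +4 stands at 0.61 in WT and -1.76 in sh8.

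The order of the days was shared by most genes of a line. In WT, 30 of 41 genes ran day -2, then +2, then +4, then 0 from highest to lowest, and a further 7 had day +2 above day -2 with the rest in that order. In sh8, 22 genes ran day -2, +2, 0 and +4, with day +4 the lowest, and the other 19 ran day -2, +2, +4 and 0. The share of all features with these orders was not counted.

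From day -2 to day 0 each of the 41 genes was lower in both lines. The median difference was -3.11 in WT, where 40 genes were lower by at least 1 (background 5.45% of all features), and -3.17 in sh8, where 40 did so (background 5.51%). In the fit over all 8 arrays with day and line as terms, the median of the 41 genes at day 0 against day -2 was -3.18, against 0.08 over all features. None of the 41 passed at an adjusted p under 0.05 (limma, Benjamini-Hochberg over 26460 features), and neither did any other feature (0% in either direction), but all 41 were lower at an unadjusted p under 0.05, as were 2703 features in all, with 4009 higher. The adjusted p of the 41 ran from 0.0636 to 0.122. With normexp background correction 40 of the 41 passed (4.46% of all features were then called lower), and among the 37 genes well above background on all 8 arrays 33 passed when only such features were tested (3.63% of them called lower).

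Aspm, which organises spindle poles, had the lowest adjusted p of this step, at -3.48 ± 0.47 (SE; adjusted p = 0.0636, limma). Foxm1, the transcription factor of the G2 programme, differed by -2.94 ± 0.43 (adjusted p = 0.0668), and Spc25, a subunit of the Ndc80 kinetochore complex, by -2.58 ± 0.37. Prc1, which bundles midzone microtubules, differed by -3.47 with an adjusted p of 0.0677. Ccnb1 differed by -3.18, Cdk1 by -1.95, Mki67 by -3.30 and Cenpe by -3.26, so Mki67 and Cenpe lay within the range of the rest at this step. Ttk, Kif11 and Cdc25c were not well above background on either day 0 array, so their difference is a bound: Kif11, the motor that pushes spindle poles apart, was at least 10.7-fold lower, the checkpoint kinase Ttk at least 5.11-fold and the phosphatase Cdc25c at least 2.71-fold. Such a bound takes, on each dim array, the higher of the gene's value and the lowest value of a probe well above background.

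By day +2 the genes were higher than at day 0 in both lines, but by different amounts. In WT the median difference was 2.70, with 38 of 41 genes up by at least 1 (background 13.4%), and in sh8 it was 1.86, with 39 up by at least 1 (background 14.5%). WT came back to within 1 of its day -2 level in 36 of 41 genes, sh8 in 10, and the share of all features within 1 was not counted. The median difference from day -2 was -0.31 in WT, with 5 genes lower by at least 1 (background 7.43%), and -1.24 in sh8, with 31 lower (background 5.61%). Aurkb, the catalytic kinase of the chromosomal passenger complex, had the largest step in WT, at 3.57, and Ccnb1 the largest in sh8, at 2.62.

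In the fit over both lines, all 41 genes had a positive difference from day 0 to day +2. Of these, 5 were called higher at an adjusted p under 0.05 (limma), a share near the background of 9% of all features called higher. At an unadjusted p under 0.05 (limma) 35 were higher, as were 5809 of all 26460 features. The median of the 41 was 2.29, against 0.11 over all features. Aspm rose by 2.55 ± 0.47 (SE; adjusted p = 0.0357, limma) and Nek2, a centrosome kinase, by 2.67 ± 0.50 (adjusted p = 0.0365). Spc25 rose by 1.94 ± 0.37 (adjusted p = 0.0393) and Prc1, named here to complete the calls, by 2.61 ± 0.53 (adjusted p = 0.0436). Cdc25c passed with an adjusted p of 0.0365 and, being dim at day 0, was at least 2.24-fold higher. Kif11 was at least 4.25-fold and Ttk at least 2.31-fold higher, short of the threshold. Ccnb1 differed by 2.95 ± 0.65 (adjusted p = 0.0524) and Cdk1 by 1.73 (adjusted p = 0.0998). Without either array of day 0 or of day +2, none of the 5 passed, and without either day +4 array 17 of the 41 did (3.24% of all features). Among 9 markers of lung epithelium, the 8 with a probe summed to 6.90 to 10.6 times the 75th percentile on the first slide, with 4 to 5 of them well above background, and to 17.0 to 23.1 on the second, with all 8 well above background in both lines. The first sum was mostly Lamp3, which changed little, while the median log2 level of the 8 went from between -5.68 and -4.72 on the first slide to between 0.27 and 0.97 on the second, and Sftpc went from -7.93 to 1.03 between days 0 and +2 in WT. The part of this shift between slides in the step was not tested.

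The step from day +2 to day +4 differed most between the lines. In WT the median was -0.57 and 2 of 41 genes were lower by at least 1 (background 0.779%), and in sh8 the median was -2.02 and 37 were (background 2.25%). Both arrays of each line lay on the same slide here. Day +4 stood above day 0 by a median of 2.16 in WT, with 37 genes up by at least 1 (background 17%). In sh8 the median was -0.059, and 37 of 41 genes lay within 1 of day 0, with 3 lower by at least 1 (background 4.37%) and 1 higher (background 16.5%). WT had the larger difference between day +4 and day 0 in 40 of 41 genes, and the share of all features with this order was not counted. Against day -2, the day +4 level was lower by at least 1 in 20 genes in WT (background 7.72%) and in all 41 in sh8 (background 7.44%).

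The fit over both lines gave no call for day +4 against day +2, nor did any feature pass (0% in either direction). All 41 genes had a negative difference, with a median of -1.28, and 8 were lower at an unadjusted p under 0.05 (limma), against 432 features lower and 1005 higher in all. Their adjusted p ran from 0.839 to 0.861. Leaving out 1 array changed this median to between -2.35 (without the WT day +4 array) and -0.28 (without the sh8 day +4 array).

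**Figure D2:**
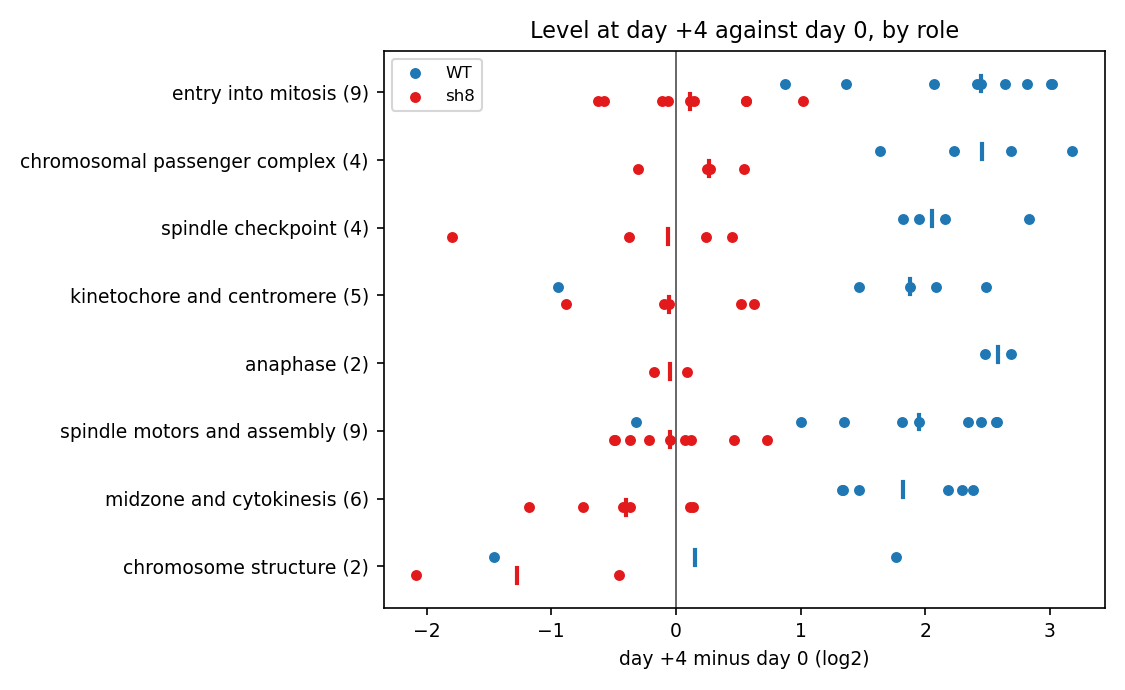
Difference between day +4 and day 0 (x axis, log2) for 41 genes grouped by role (y axis, number of genes in brackets), 1 point per gene, WT in blue and sh8 in red, with the median of each group as a vertical bar. The WT points lie mostly between 1 and 3 and the sh8 points around 0, and Mki67, Cenpe and Hmmr give the 3 WT points below 0.

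The comparison of sh8 with WT can be read day by day. At day -2 the median difference of the 41 genes was 0.02, and none was lower by at least 1 (background 4.91%) or higher by as much (background 6.47%). At day 0 it was -0.18, with 2 genes lower by at least 1 (background 4.95%) and 1 higher (background 7.89%). At day +2 it was -1.04, with 22 genes lower (background 5.52%) and 2 higher (background 14.1%), those 2 being Mki67 and Cenpe. At day +4 it was -2.37, a 5.16-fold lower level in sh8, with 38 genes lower by at least 1 (background 5.22%) and none higher by as much (background 9.64%). The medians over all features on these days lay between 0.08 and 0.16. Each of these values rests on 1 array per line and has no replicate check.

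**Figure D3:**
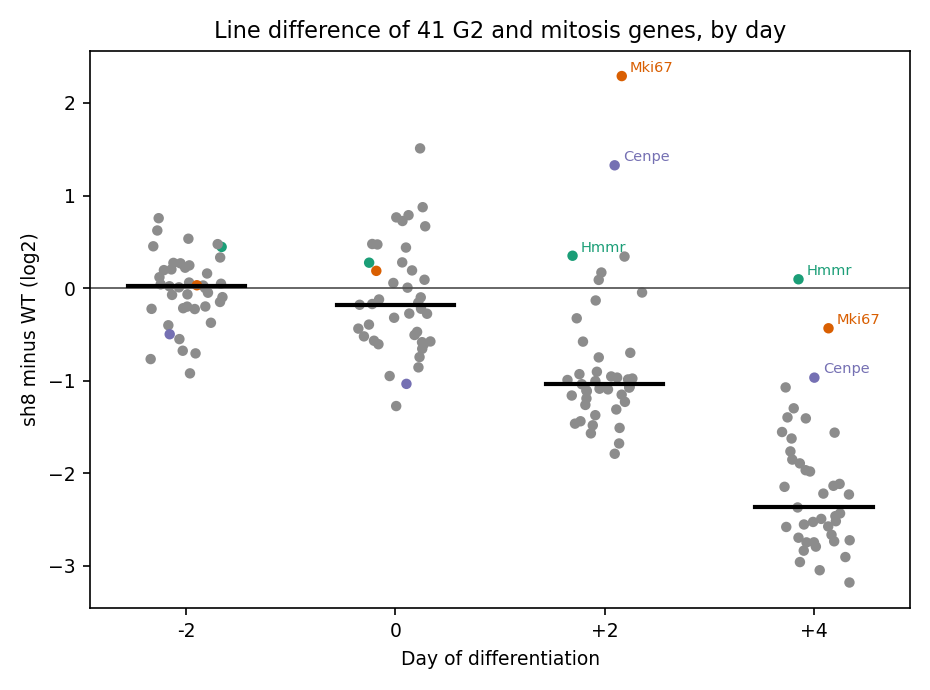
Difference between sh8 and WT (y axis, log2) of 41 genes at each day (x axis), 1 point per gene, with the median as a black bar. The median moves from 0.02 at day -2 to -2.37 at day +4, while Mki67 and Cenpe lie above 1 at day +2 and Hmmr lies at 0.095 at day +4.

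Across the 4 days, 3 of the 41 genes were called lower in sh8 than in WT (background 10.3% lower) and none was called higher (background 16.8% higher). Calls were thus no more frequent among the 41 genes than elsewhere. At an unadjusted p under 0.05, 13 were lower and 1 higher (limma), against 4361 and 7236 of all 26460 features. The median of the 41 was -0.90, against 0.13 over all features, and 36 were negative. Nek2 was lower by a difference of -1.46 ± 0.35 (SE; adjusted p = 0.0401, limma). Cdca3, which helps degrade the Cdk1 inhibitor Wee1, differed by -1.60 ± 0.42 (adjusted p = 0.0480), and Mad2l1, the spindle checkpoint protein that holds back Cdc20, by -1.42 ± 0.37 (adjusted p = 0.0483). Spc25 missed the threshold at -0.99 ± 0.26 (adjusted p = 0.0510). Ccnb1 differed by -1.21 ± 0.46 (adjusted p = 0.110), Cdk1 by -0.92 ± 0.38 (adjusted p = 0.127), Cenpe by -0.29 (adjusted p = 0.633) and Mki67 by 0.52 (adjusted p = 0.441). The p-values here measure how much the line difference varied between days, and that difference grew with time. With the arrays of days -2 and 0 alone none of the 41 passed, and with those of days +2 and +4 alone 11 did (7.21% of all features). The 3 calls were lost when either array of any 1 day was left out, with 0 of 41 called without day 0, +2 or +4 and 2 others called without day -2.

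The summed level of the 11 adipocyte markers, to which Lpl and Fabp4 contributed most, was 36.5 to 70.9 times the 75th percentile on the WT arrays and 12.1 to 26.9 on the sh8 arrays. The median log2 level of the 11 did not run the same way: at days -2, 0, +2 and +4 it was -4.51, -4.53, -4.12 and -2.15 in WT and -4.23, -4.00, -3.46 and -3.36 in sh8, lower in sh8 at day +4 alone. Single markers went both ways, though at day +4 all of them but Cebpa and Cidec were lower in sh8. At that day Cfd stood at -5.44 in sh8 against -2.64 in WT, and Cd36 at -1.78 against 0.15. Cebpa, a transcription factor of fat cells, was higher in sh8 at days 0, +2 and +4. Pparg, another such factor, was lower in sh8 on every day, at -0.20 against 1.64 in WT at day +4. Fabp4 and Lpl were lower in sh8 on every day as well. Macrophage and leukocyte markers, 6 of 7 with a probe and 5 to 6 of them well above background, summed to at most 5.26 on a WT array and 7.16 on an sh8 array, with each sh8 array above each WT array. Their part in the line difference of the mitosis genes was not tested.

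Whether the line difference itself changed after induction was asked with the interaction of line and period (days +2 and +4 against days -2 and 0). The periods lay on different slides and the lines at different positions. This interaction and one of slide with position thus cannot be told apart. The median of the 41 genes was -1.56, against -0.01 over all features, and 39 were negative. None passed, and no feature did (0% in either direction), while 22 were lower at an unadjusted p under 0.05 (limma, 2106 features lower and 3162 higher in all). Foxm1 had the lowest adjusted p, at -1.26 ± 0.19 (adjusted p = 0.127), followed by Racgap1, a subunit of the centralspindlin complex, (adjusted p = 0.151), and Mad2l1 at -1.52 (adjusted p = 0.158). Cdk1 stood at -1.47 and Ccnb1 at -1.64, while Cenpe stood at 0.95 (adjusted p = 0.571) and Mki67 at 0.82 (adjusted p = 0.666). With normexp background correction 12 of the 41 passed (1.59% of all features were then called lower), and among the 37 genes well above background on all 8 arrays 3 passed (1.39% of such features). Day +4 was also set against the other days, a contrast chosen with an earlier result of these data known, so its counts are not separate support. The median interaction of line with day +4 was -1.93, and all 41 were negative. At an unadjusted p under 0.05 (limma) 31 were lower, against 403 features lower and 235 higher. No member or other feature passed that test (0%, limma), and every member's adjusted p was 1.00.

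Among the 9 genes of entry into mitosis, day +4 stood above day 0 by a median of 2.44 in WT and 0.11 in sh8. Cdk1 stood at 3.31, 1.39, 3.59 and 3.46 in WT at days -2, 0, +2 and +4, and at 3.16, 1.17, 2.43 and 1.31 in sh8. Its WT levels at days +2 and +4 were above that of day -2, and its sh8 day +4 level was back at that of day 0. Ccnb1, the cyclin of the mitotic kinase, stood at 2.60, -0.38, 2.89 and 2.43 in WT and at 2.40, -0.97, 1.66 and -0.40 in sh8. Cdca3 stood at 3.23, 0.12, 2.92 and 2.53 in WT and at 2.31, -0.63, 1.24 and -0.51 in sh8, lower in sh8 on all 4 days. The remaining entry genes were Ccnb2, Ccna2, Cdc25c, Plk1, Aurka and Foxm1, and each was lower in sh8 than in WT at both day +2 and day +4, by 1.62 or more at day +4. Foxm1 came back least: its step from day 0 to day +2 was 1.60 in WT and 0.43 in sh8.

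The chromosomal passenger complex, which corrects chromosome attachment and guides cytokinesis, is formed by Aurkb, Incenp, Birc5 (survivin) and Cdca8 (borealin). Its 4 genes differed between the lines by a median of -1.05 at day +2 and -2.33 at day +4. Incenp stood at 3.56, 1.71, 3.51 and 3.35 in WT and at 3.36, 1.24, 2.60 and 1.78 in sh8. Birc5 stood at 3.51, 0.33, 3.36 and 3.02 in WT and at 3.57, 0.81, 2.37 and 0.50 in sh8. In WT neither gene had lost more than 0.5 of its day -2 level by day +4. Aurkb had the largest line difference of all 41 genes at day +4, -3.18.

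The spindle checkpoint genes Bub1, Bub1b, Mad2l1 and Ttk delay anaphase until all chromosomes are attached. Mad2l1 stood at 3.40, 0.89, 3.27 and 3.05 in WT and at 2.73, 0.24, 1.48 and 0.48 in sh8, and its line difference at day +2, -1.79, was the lowest of the 41 genes. Bub1 stood at 1.90, -1.49, 1.15 and 0.46 in WT and at 1.85, -1.66, 0.40 and -2.03 in sh8. All 4 were lower in sh8 at day +4, by 2.49 to 2.90. Ttk was not well above background on the sh8 day +4 array, so its value there is uncertain.

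Of the 6 kinetochore and centromere genes 5 were tested. Spc25 stood at 2.32, -0.16, 2.02 and 1.72 in WT and at 1.92, -0.77, 0.93 and -0.14 in sh8. Ndc80 and Nuf2, which form the microtubule-binding complex with it, and Cenpa, the centromeric histone H3, followed the same course, with steps from day 0 to day +2 of at least 1.49 in both lines. Cenpe, the fifth, did not and is described with Mki67 below.

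Cdc20, which activates the anaphase-promoting complex, stood at 3.61, 0.19, 3.22 and 2.67 in WT and at 3.83, 0.38, 2.24 and 0.21 in sh8. Ube2c, the ubiquitin-conjugating enzyme of that complex, stood at 1.44, -2.10, 1.26 and 0.59 in WT and at 1.34, -2.20, -0.22 and -2.11 in sh8. Both ended within 0.2 of their day 0 level in sh8.

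The 9 genes of spindle motors and assembly differed between the lines by a median of -2.43 at day +4. Tpx2, which activates Aurora A on the spindle, stood at 1.27, -0.91, 1.01 and 0.09 in WT and at 1.29, -1.77, -0.25 and -2.14 in sh8. Aspm stood at 0.83, -2.67, 0.04 and -0.86 in WT and at 1.45, -2.00, 0.39 and -1.93 in sh8. At day +2 Aspm was thus not lower in sh8, and the lines parted at day +4. Kif11 was not well above background on the sh8 day +4 array.

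The 6 genes of the midzone and of cytokinesis had a median line difference of -0.64 at day +2 and -1.86 at day +4. Anln, an actin-binding protein of the contractile ring, stood at 3.18, 0.01, 2.11 and 1.35 in WT and at 3.66, 0.80, 2.20 and 0.05 in sh8. Kif20a, a midzone kinesin, stood at 2.76, -0.83, 2.16 and 1.55 in WT and at 2.54, -0.74, 1.21 and -1.17 in sh8. Kif23, the kinesin of centralspindlin, stood at 0.27, -4.15, -1.52 and -1.86 in WT and at 0.80, -2.65, -1.35 and -3.82 in sh8. Kif23 had the lowest difference of the 41 genes between days 0 and -2 in WT, -4.43, and at day 0 it was the 1 gene higher by at least 1 in sh8, by 1.51. In sh8 its day +4 level was below that of day 0, with a difference of -1.18.

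Top2a, the topoisomerase that untangles sister chromatids, stood at -0.32, -2.81, -0.21 and -1.05 in WT and at 0.13, -2.81, -0.91 and -3.27 in sh8, lowest at day 0 in WT and at day +4 in sh8.

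Mki67, the coat protein of mitotic chromosomes and a usual marker of dividing cells, stood apart most. In WT it stood at 2.61, -0.77, -1.15 and -2.23 at days -2, 0, +2 and +4, and in sh8 at 2.64, -0.58, 1.14 and -2.66. It was the 1 gene of 41 that was lower at day +2 than at day 0 in WT, with a difference of -0.38, while in sh8 it was 1.72 higher. Sh8 was above WT by 2.29 at day +2 and below it by a difference of -0.43 at day +4. A second Mki67 probe gave -0.27 in WT and 1.64 in sh8 for the same step. The mean absolute distance of its centred levels from the median of the other tested genes was 1.42 over the 8 arrays, the largest of all. No member had a step opposite in sign to the members' median by 0.5 or more, the size set for calling a member departing.

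Cenpe, the kinesin that carries chromosomes to the spindle equator, had a distance of 0.987. Its WT levels were 2.80, -0.19, -0.05 and -1.14 and its sh8 levels 2.30, -1.22, 1.28 and -2.10. Like Mki67 it stayed near its day 0 level in WT at day +2, with a difference of 0.14, and stood above it in sh8, by 2.50. At day +4 both genes were below their day 0 level in both lines. In the fit over both lines, neither passed for day +2 against day 0 (Cenpe 1.32 ± 0.62, adjusted p = 0.220; Mki67 0.67 ± 0.68, adjusted p = 0.537, limma).

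Hmmr, a microtubule-binding protein of the spindle, stood apart in another way: it moved little. Its levels were -0.36, -1.16, -1.02 and -1.47 in WT and 0.08, -0.88, -0.67 and -1.38 in sh8, and its distance from the median was 1.04. It was above background on all 8 arrays. It had the smallest difference between days 0 and -2 in both lines, -0.79 in WT and -0.96 in sh8, and the smallest step to day +2 in sh8, 0.21. Kif23 came after these, with a distance of 0.675, ahead of Ttk at 0.545.

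**Figure D4:**
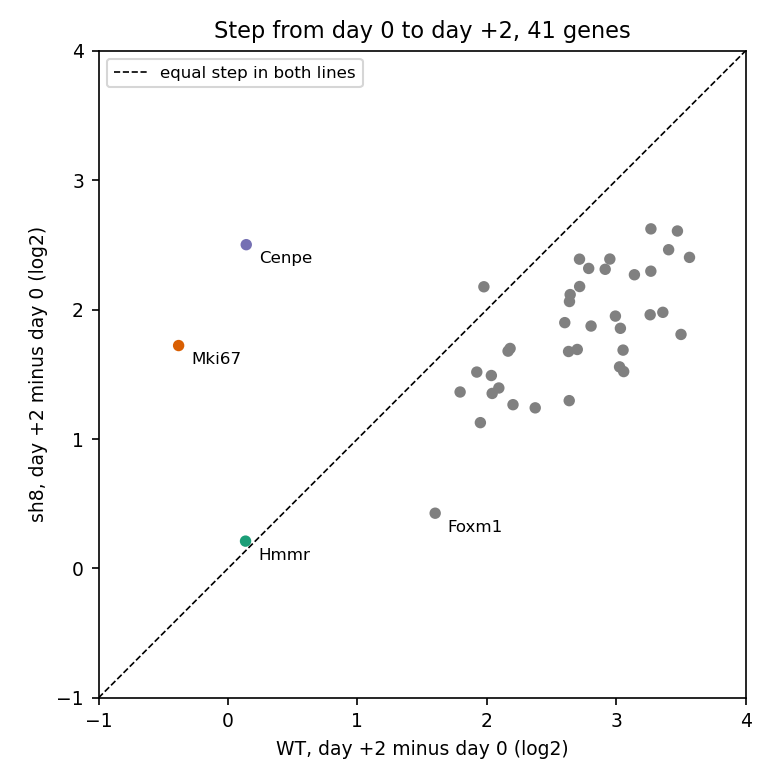
Step from day 0 to day +2 in WT (x axis, log2) against the same step in sh8 (y axis, log2), 1 point per gene for 41 genes; the dashed line marks equal steps. Most points lie below the line between 1.5 and 3.6 on the WT axis, Hmmr lies near 0 on both axes, and Cenpe and Mki67 lie near 0 in WT and at 2.50 and 1.72 in sh8.

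Of the 42 genes, 14 had more than 1 probe, and the probe of the highest mean was used. The other probes that were measured numbered 17, from 13 genes. Of these, 16 had the same sign of the line difference, 17 were lower in sh8 at day +4, and 17 were lower at day +4 than at day +2 in sh8. The largest gap was 1.28, for a Cdk1 probe well above background on 3 arrays.

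A further 53 mitosis genes outside the 42 were tested, among them other kinesins, centromere proteins and cohesin guards. All 53 had a negative line difference with a median of -0.88, and 1 passed (10.3% of all features were called lower), Hmgb2, a chromatin protein of dividing cells, at -1.12 (adjusted p = 0.0369, limma). At day 0 against day -2 their median was -2.63, with all 53 negative and none called. At day +2 against day 0 it was 1.91, with 52 positive and 8 called higher (9% of all features). On day +4 alone, 50 of the 53 were lower in sh8 by at least 1 (5.22% of all features). Of 8 condensin subunits, which compact chromosomes, 7 had a negative line difference. Ncapg2 was the 1 called lower in sh8 (10.3% of all features), at -1.15 (adjusted p = 0.0412, limma). All 8 had a positive difference from day 0 to day +2, and 3 were called higher (9% of all features). These were Ncapg at 1.99 (adjusted p = 0.0377), Ncapd3 at 1.28 (adjusted p = 0.0379) and Smc2 at 1.59 (adjusted p = 0.0397).

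Genes of the complexes that regulate the programme had a median of -0.44 from day -2 to day 0 and 0.35 from day 0 to day +2. Of these 13 genes of MuvB, DREAM and B-Myb, 2 were called lower and 1 called higher in sh8. The background was 10.3% and 16.8% of all features, shares too near for a statement about the complexes. The lower ones were Lin54, the MuvB subunit that binds the cell cycle genes homology region, at -1.06 ± 0.13 (adjusted p = 0.0134, limma) and Dyrk1a, the kinase that assembles DREAM, at -0.47 (adjusted p = 0.0329). Rbl1, which codes for the pocket protein p107, was higher at 0.82 (adjusted p = 0.0270). Lin54 also rose from day 0 to day +2, by 0.89 (adjusted p = 0.0437). Mybl2, which codes for B-Myb, did not pass for the line (-0.38, adjusted p = 0.369), and its interaction with the period was -1.23 (adjusted p = 0.138).

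Of 16 genes of the anaphase-promoting complex and its regulators, 3 were called lower in sh8 (10.3% of all features): Anapc4 at -0.50 (adjusted p = 0.0237, limma), Anapc7 at -0.59 (adjusted p = 0.0326) and Cdc23 at -0.48 (adjusted p = 0.0433). Their day comparisons gave no call. The median of the 16 was -0.05 for day 0 against day -2, with 9 negative and 7 positive, and 0.03 for the step to day +2. The regulators Fbxo5 and Fzr1 lay well below that median at day 0 against day -2, at -2.33 (adjusted p = 0.103, limma) and -1.06 (adjusted p = 0.107). Of 12 genes of cell cycle inhibitors and of the G2 checkpoint, 3 were called lower and 2 called higher in sh8, against 10.3% and 16.8% of all features. The higher calls were thus no more frequent in the list than elsewhere. Cdkn1b, which codes for the inhibitor p27, was lower at -0.63 (adjusted p = 0.0173), and Cdkn2c, which codes for p18, at -1.25 (adjusted p = 0.0246). Cdkn1a, which codes for p21, was higher at 0.55 (adjusted p = 0.0331), while the stress-induced Gadd45g at 0.65 (adjusted p = 0.0348) and the checkpoint kinase Chek2 at -0.94 (adjusted p = 0.0499) were named after their values were seen, to complete the count. From day 0 to day +2, 5 of the 12 had a negative difference and 7 a positive one. Gadd45b was the 1 gene of the 12 called lower, at -0.89 (adjusted p = 0.0322, limma), against 2.89% of all features.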

How the data were processed

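RNA of 8 samples, 1 per line and day, was labelled with Cy3 from 1 µg per sample and hybridised to Agilent one-colour arrays, per the labels' protocols; the series description names another array maker. Per the file headers, Agilent Feature Extraction 11.0.1.1 read the arrays. Each of the authors' deposited scanner files lists a processed intensity for every spot. The authors' deposited matrix holds log2 values of the same arrays, whose column medians lie near 6.39 and whose columns correlate with their own array at r from 0.994 to 1.00 across probes; no source used here gives its normalization, and it served as an alternative.

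Of 44397 spots per array, 1377 controls were left out, spots of a probe were averaged, giving 39429 probes, and 46 flagged probes were left out. Values are log2 processed intensity minus the array's 75th percentile (an intensity of 760 to 1239). Symbols came from RefSeq accessions for 27234 probes; of a gene's probes the one with the highest mean was kept. Features well above background on at least 2 arrays were tested, 17549 named and 8911 unnamed. Tests used limma (lmFit, eBayes), version 3.58.1, under R 4.3.3, with day and line as terms (3 residual degrees of freedom) or with an interaction added (2), Benjamini-Hochberg adjustment and a threshold of 0.05. The scripts were tested on simulated data. Nothing in the labels says the samples came from separate cultures, and the number of arrays limits the precision.

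Members, gene lists (including the lung markers) and the interaction of line with day +4 were chosen with earlier results of these data known. Values on all 8 arrays are given for Ccnb1, Cdk1, Mki67, Cenpe, the pair with the highest mean level in each role, members departing in sign by at least 0.5 and the 4 farthest from the median profile; fits are given for up to 4 members of lowest p in a comparison and the first 4 named. Other scalings, background corrections, filters, probe rules, slide terms and leaving out each array were tried as alternatives.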

Additional observations from a re-analysis of the deposited data

Results flagged for a closer look

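Mki67 was the gene whose change had opposite signs in the lines: from day 0 to day +2 it differed by -0.38 in WT and by 1.72 in sh8. Each value comes from 1 array per day, and the difference between the lines in this step was not tested on its own.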

How the results depend on the processing

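No paired analysis was possible because every sample carries the replicate number 1, so the numbers pair nothing; the day term of the model already sets the lines against each other within each day. Numbers of genes below are of those called at an adjusted p under 0.05 (limma). Shares of all features called in the same direction stand in brackets. The number of genes lower in sh8 (3 as reported) was 1 with quantile scaling (9.72%), 7 with median scaling (17.3%), 6 with normexp (13.6%), 1 with the authors' values (9.91%), 0 without the filter on dim probes (6.17%), 6 with features well above background on all 8 arrays (17.2%), 0 with slide in place of day (6.78%), 0 and 11 with the arrays of days -2 and 0 or of days +2 and +4 alone (0% and 7.21%), 19 with the line by period term in the model (15.6%), and 0 to 2 when 1 array was left out. For day 0 against day -2 (0 called) it was 40 with normexp (4.46%) and 33 with features well above background on all 8 arrays (3.63%), and the members' median (-3.18) was -3.25 with median scaling, -2.58 with normexp, -3.08 with the mean of a gene's probes and -3.61 to -2.57 with 1 array left out. For day +2 against day 0 (5 called) it was 2 with quantile scaling (4.57%), 3 with median scaling (6.04%), 12 with normexp (5.69%), 2 with the authors' values (4.55%), 3 without the filter (5.35%), 13 with features well above background on all 8 arrays (7.82%) and 0 to 17 with 1 array left out, where the median ran from 1.77 to 2.90. With 1 array left out, the median of day +4 against day +2 ran from -2.35 to -0.28 and that of line by period from -2.24 to -0.85; line by period had 12 calls with normexp (1.59%) and 3 with features well above background on all 8 arrays (1.39%). Single genes changed sign as follows. For sh8 against WT, Mki67 ran from -0.072 (without either day +2 array) to 0.84 with 1 array left out, and Cenpe was 0.18 with days +2 and +4 alone. For day +2 against day 0, Mki67 ran from -0.51 (without the sh8 day +2 array) to 1.85 (without the WT day +2 array). For day +4 against day +2, Cdk1 ran from -1.44 to 0.19 (without the WT and the sh8 day +4 array). For line by period, Mki67 ran from -0.54 to 2.18 and Cenpe from -0.20 to 2.09 (without a day +2 and a day +4 array). Each such day then rests on 1 line, and the cause of the other changes was not tested. The median of all features for sh8 against WT was 0.13 as reported, 0.023 with quantile scaling and -0.076 with median scaling, and 38.0%, 49.3% and 69.8% of calls were lower; for day +2 against day 0, 24.3%, 37.9% and 40.0% were. No alternative turned the members' median in any of the 6 comparisons.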

Other observations

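A gene outside the 42 had the course of Mki67 and Cenpe; it was found by a rule chosen after the values were seen. Of 133 features that were lower by at least 2 at day 0 in both lines and higher again by at least 1.5 at day +2 in sh8, 30 were among the 42 genes, and 10 features were higher by less than 0.5, or lower, at day +2 in WT. These were Cenpe, Mki67, Kif20b, Gstt4, Actg2, Rassf6, Vgf, Kirrel2, Gria3 and Lexm, and the first 3 were well above background on all 8 arrays. Kif20b, a kinesin of cytokinesis, stood at 1.57, -1.47, -1.16 and -2.15 in WT at days -2, 0, +2 and +4 and at 1.41, -2.04, -0.30 and -3.32 in sh8, so that its step to day +2 was 0.31 in WT and 1.74 in sh8.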
